A study of Mus musculus with 24 samples.

Results

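Curcumin-loaded liposomes were compared with empty liposomes in liver cells that had acquired the liposomes' dye. The comparison set the 3 libraries of DiI-positive cells after curcumin liposomes (replicates 1 to 3) against the 3 libraries of DiI-positive cells after empty liposomes (replicates 1 to 3), 6 of the 12 libraries of the study. It covered 14227 of the 45792 genes in the deposited values, those whose log2 values averaged 4 or more across the 12 libraries. In both groups the cells were sorted as CD11c+ and MHC class II+ from livers of female C57BL/6 mice kept for 2 weeks on a diet without methionine and choline, which leads to fatty, inflamed liver. DiI, a fluorescent membrane dye, was carried by both kinds of liposome, which were given into a vein 24 h before the sort, so DiI-positive cells were those that had acquired dye. DiI-negative cells of the same gate, 3 libraries after each liposome, gave the comparison most like this one. No group without liposomes and no group on a normal diet was analysed here, so diet, liposome lipid and dye were shared by both arms. Whether each of a group's 3 libraries stands for 1 mouse or several is not stated in the sources used here. The p-values below therefore measure the spread between libraries, which may be partly technical.

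Curcumin is a plant polyphenol that reacts with protein thiols. In cultured cells it is best known for a pair of activities: it releases the transcription factor NRF2 from its inhibitor KEAP1, so that genes of glutathione, heme and iron handling are switched on, and it blocks the kinase step that frees NF-kB, the factor behind many cytokine, chemokine and adhesion genes. Thiol-reactive compounds also release heat shock factor 1, which drives chaperone genes. In the liver, particles given into the blood are cleared mainly by Kupffer cells, the resident macrophages, and by sinusoidal endothelial cells, while dendritic cells carry antigen to T cells.

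Values are gene-level log2 values deposited by the authors, on a scale that has the form of a regularized log. On such a scale the values of genes with few reads are pulled together, so differences of low genes are understated. A difference is the mean after curcumin minus the mean after empty liposomes, given in log2 units with its standard error after ±. All p-values of single genes are from 1 limma fit over the 12 libraries. Read depth cannot be taken from these values and is unknown. The 6 libraries resembled each other in the number of genes at 5 or more (12769 to 12900) and in their median over the genes tested (8.79 to 8.85). Xist was at 11.05 or more in every library and the Y-linked Kdm5d at -2.47 or less, as the labelled sex requires. The genes of the gate were high throughout: Cd74, the class II invariant chain, stood at 19.19, 19.24 and 19.13 after empty and 19.36, 19.37 and 18.99 after curcumin liposomes, and Itgax, which encodes CD11c, at 12.93, 12.01 and 12.68 after empty and 12.6, 12.55 and 13.24 after curcumin liposomes. Markers of other cells than dendritic cells were also present in every library, among them Cd79b of B cells at 13.69 or more and Clec4f of Kupffer cells at 11.54 or more, so the sorted cells were not dendritic cells alone. Differences between genes in such levels also reflect gene length and do not give shares of cells. In sorted bulk RNA, fewer cells of a type and less RNA per cell cannot be told apart.

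The 3 curcumin libraries differed among themselves more than the 3 empty ones. The median SD of a gene was 0.21 within the curcumin group and 0.174 within the empty group, against 0.148 and 0.136 in the 2 DiI-negative groups. Curcumin replicates 1 and 3 lay at the opposite ends of the first principal component of the 6 libraries (scores -34.9 and 24.5, 30.2% of the variance), and the other 4 libraries lay between -3.6 and 6.8. In curcumin replicate 1, 106 genes were at least 1 log2 unit from their group mean, and in curcumin replicate 3, 102 genes were; the other 4 libraries had 19 to 42 such genes. Where leaving out 1 library moved a gene's difference or a list's median by over 1.5 times, the value without it is given for some only. A value printed without such a figure may also move by that much or change sign.

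**Figure D1:**
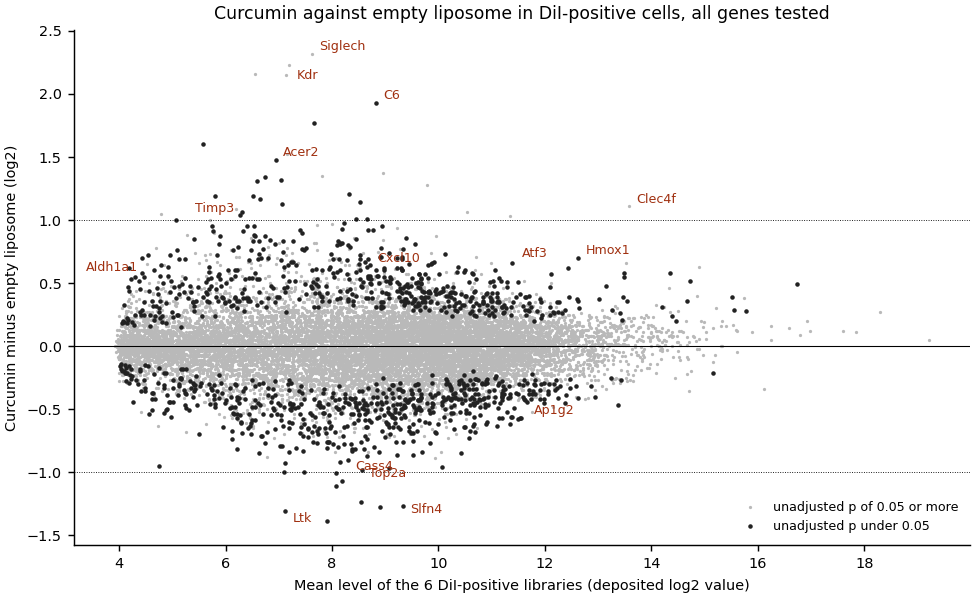
Difference between curcumin and empty liposomes in DiI-positive cells (y axis, log2) against the mean level of the 6 libraries (x axis, deposited log2 value), 1 point for each of the 14227 genes, dark where the unadjusted limma p was under 0.05; dotted lines mark a 2-fold difference. Few genes lie beyond 2-fold (32 above and 9 below), several of the highest points, such as Siglech and Kdr, are not dark, and highly expressed genes lie close to 0.

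No gene passed the test. With limma and Benjamini-Hochberg adjustment over the 14227 genes, 0 genes (percent called 0) had an adjusted p under 0.05, and the lowest adjusted p was 0.30. With 1 of the 6 libraries left out, 0 to 4 genes were called, and they differed with the library left out. At an unadjusted p under 0.05, 549 genes (3.86%) were higher and 616 (4.33%) lower after curcumin. When the 6 DiI-positive libraries were fitted alone, with their own larger spread, 694 genes (4.88%) had an unadjusted p under 0.05. The 3 libraries of one arm lay wholly above those of the other for 701 genes (4.93%, higher after curcumin) and wholly below for 724 genes (5.09%). With 3 against 3 libraries, the random order of libraries alone would give shares of about this size in each direction. That a gene's libraries did not overlap is therefore a description and not, by itself, evidence of a difference after curcumin. Counts of listed genes below are to be read against these 4 shares, and genes are described as higher or lower in mean, or by whether their libraries overlapped. The median difference over all genes tested was 0.00, and 50.1% of genes had a difference above 0.

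The size of difference that these libraries could bound was moderate. The median half-width of the 95% confidence interval was 0.35, and for 13228 genes (93.0%) the whole interval lay within a 2-fold difference in either direction. These intervals and the standard errors use 1 spread shared by all 12 libraries. The median SD was larger in the DiI-positive groups (0.21 and 0.174) than in the DiI-negative groups (0.148 and 0.136). The intervals may therefore be too narrow for this comparison. Of the 4464 genes with a level of 10 or more, 97.8% had such an interval, and of the 2892 genes between 6 and 8, 87.0%. Of the 2712 genes between 4 and 6 it was 95.6%, with a median half-width of 0.26. At these low levels the scale pulls values together, so narrow intervals there do not bound the difference well. From the 5th to the 95th percentile the differences ran from -0.39 to 0.38. A mean difference of 2-fold or more was seen for 41 genes, 32 of them higher and 9 lower after curcumin.

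The genes that were highest relative to empty liposomes, among those with libraries that did not overlap, included genes known from Kupffer cells, hepatocytes and endothelium. C6, a terminal complement component also made by Kupffer cells, stood at 5.65, 8.42 and 9.52 after empty and 9.77, 9.54 and 10.07 after curcumin liposomes, a difference of 1.93 ± 0.71 (limma adjusted p = 0.54). Its empty libraries spread over more than 3 log2 units with replicate 1 lowest, and without that library the difference was 0.82. Mat1a, the hepatocyte enzyme that makes S-adenosylmethionine, was at 6.6, 5.72 and 6.83 after empty and 7.87, 7.84 and 7.41 after curcumin liposomes (1.32 ± 0.33, limma adjusted p = 0.42). Of its curcumin libraries, replicate 3 was lowest. Col4a1, a basement membrane collagen, was at 6.05, 5.92 and 6.26 after empty and 6.93, 6.69 and 8.65 after curcumin liposomes (1.34 ± 0.41), and Eng, the endothelial TGF-beta coreceptor endoglin, at 7.53, 8.35 and 8.01 after empty and 8.68, 8.81 and 9.81 after curcumin liposomes (1.14 ± 0.29). In both, curcumin replicate 3 stood highest, and without it the Col4a1 difference was 0.73. Acer2, an alkaline ceramidase of the Golgi, was at 6.38, 5.37 and 6.86 after empty and 7.34, 7.4 and 8.29 after curcumin liposomes (1.48 ± 0.39), Smim5 at 1.21 ± 0.38, Chp2 at 1.13 ± 0.32 (0.64 without empty replicate 1) and the interferon-induced GTPase Iigp1 at 1.01 ± 0.38 (0.58 without empty replicate 1).

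The genes with the smallest p and a higher mean overlapped with these in Timp3 and otherwise had smaller differences. They too were taken only from genes with libraries that did not overlap, so arms that are apart follow from the choice. Timp3, an inhibitor of matrix metalloproteinases (chromosome 10, 86300372 to 86349506, GRCm38), was at 5.77, 5.79 and 5.78 after empty and 6.64, 6.48 and 7.4 after curcumin liposomes. The 3 empty libraries were almost equal, near the low end of the levels tested, and the lowest curcumin library was 0.70 above the highest of them (difference 1.06 ± 0.20, limma adjusted p = 0.42). Inpp4a, a phosphatase that removes a phosphate from phosphatidylinositol 3,4-bisphosphate, stood at 7.2, 7.27 and 7.5 after empty and 7.92, 7.87 and 7.97 after curcumin liposomes (0.60 ± 0.13). Per2, a repressor of the circadian clock, was at 8.07, 7.49 and 7.55 after empty and 8.56, 8.54 and 8.48 after curcumin liposomes (0.83 ± 0.19), and its 3 curcumin libraries lay close together. Ltbr, the lymphotoxin beta receptor, was at 10.12, 9.93 and 10.14 after empty and 10.49, 10.42 and 10.55 after curcumin liposomes (0.43 ± 0.10). Serpina1b, an alpha-1 antitrypsin of hepatocytes, was at 5.96, 5.81 and 6.0 after empty and 7.38, 6.93 and 6.3 after curcumin liposomes (0.95 ± 0.22); it has near-identical neighbours in its gene cluster between which reads could be split, so its level is uncertain. Dgkg, a diacylglycerol kinase (0.60 ± 0.14), Ino80, the motor of a chromatin remodeller (0.74 ± 0.17), the mitochondrial ribosome recycling factor Mrrf (0.59 ± 0.14), the scaffold protein Dlg3 (0.87 ± 0.20), Wrb (0.80 ± 0.19), Chid1 (0.66 ± 0.16), the receptor Gpr141 (0.63 ± 0.15), the deubiquitinase Stambpl1 (0.57 ± 0.14) and Fam206a (0.60 ± 0.15) followed. The limma adjusted p of each of these genes was 0.42. Of all genes tested, the lowest p belonged to Aldh1a1, a retinaldehyde dehydrogenase, which stood at 4.15, 4.16 and 4.27 after empty and 4.87, 4.81 and 4.53 after curcumin liposomes, under the level set for naming (0.55 ± 0.08, limma adjusted p = 0.3); it was picked out after its value was seen.

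**Figure D2:**
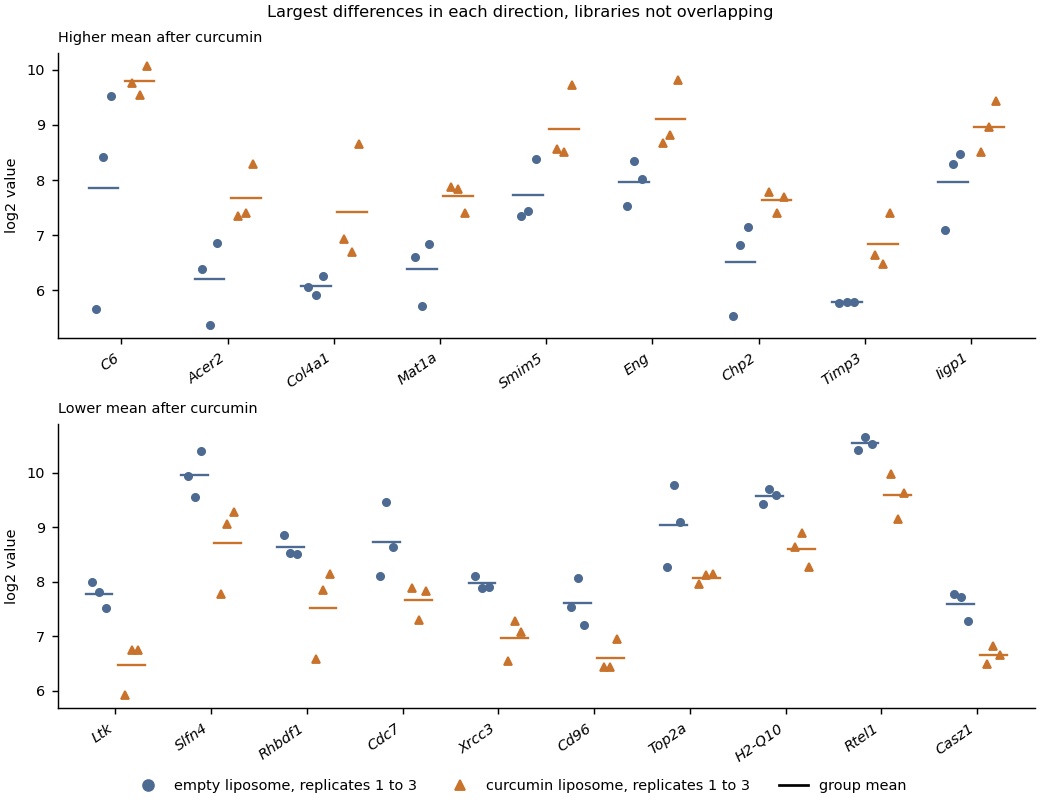
Deposited log2 value (y axis) in each of the 6 DiI-positive libraries for the 10 genes with the largest higher (top) and lower (bottom) mean after curcumin among genes with libraries that did not overlap, 1 of which is left out; circles are empty and triangles curcumin libraries, in the order of replicates 1 to 3, and bars are group means. C6 ranges from 5.65 to 9.52 over the empty libraries, and Rhbdf1 and Slfn4 are lowest in curcumin replicate 1.

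The genes with lower means, also taken only from those with libraries that did not overlap, included signalling and DNA repair genes. Ltk, a receptor tyrosine kinase, was at 8.0, 7.81 and 7.51 after empty and 5.91, 6.74 and 6.74 after curcumin liposomes, the largest difference of the rule in this direction (-1.31 ± 0.29, limma adjusted p = 0.42). Cass4, an adaptor of focal adhesion signalling (chromosome 2, 172393794 to 172433757), was at 8.52, 8.98 and 8.75 after empty and 7.94, 7.78 and 7.83 after curcumin liposomes (-0.90 ± 0.17). All 3 curcumin libraries lay well under the lowest empty library. Ap1g2, a subunit of the AP-1 clathrin adaptor, was at 11.93, 11.89 and 11.81 after empty and 11.42, 11.45 and 11.43 after curcumin liposomes (-0.44 ± 0.08), with curcumin libraries that were almost equal. Ctbp1, a transcriptional corepressor, was at 10.96, 11.08 and 10.74 after empty and 10.11, 10.03 and 10.45 after curcumin liposomes (-0.73 ± 0.15). Wipi2, which recruits the conjugation machinery of autophagosomes, was at 11.35, 11.53 and 11.34 after empty and 10.56, 10.79 and 10.98 after curcumin liposomes (-0.63 ± 0.13), and Rab24, a small GTPase also placed on autophagic membranes, at 11.26, 11.4 and 10.93 after empty and 10.75, 10.5 and 10.49 after curcumin liposomes (-0.62 ± 0.13). Cerk, ceramide kinase, was at 12.43, 12.48 and 12.43 after empty and 11.94, 11.99 and 12.18 after curcumin liposomes (-0.41 ± 0.10). Each of these genes had a limma adjusted p of 0.42.

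The larger differences in this direction varied more between libraries. Slfn4, a schlafen gene of myeloid cells, was at 9.94, 9.56 and 10.39 after empty and 7.78, 9.05 and 9.27 after curcumin liposomes (-1.27 ± 0.41) and Rhbdf1, an inactive rhomboid protein, at 8.86, 8.52 and 8.5 after empty and 6.58, 7.85 and 8.13 after curcumin liposomes (-1.11 ± 0.43). For both, curcumin replicate 1 was the lowest library, and without it the differences were -0.81 and -0.64. Cdc7, a kinase that fires replication origins (-1.07 ± 0.35, -0.71 without empty replicate 2), Top2a, the topoisomerase of dividing cells (-0.98 ± 0.31), and the recombination factor Xrcc3 (-1.0 ± 0.23) and helicase Rtel1 (-0.96 ± 0.25) were lower in mean. Top2a stood at 8.26, 9.78 and 9.09 after empty and 7.95, 8.12 and 8.13 after curcumin liposomes, and the proliferation marker Mki67 at 9.88, 9.04 and 9.75 after empty and 9.41, 9.62 and 9.87 after curcumin liposomes (0.07 ± 0.23), with arms that overlapped. Without empty replicate 2 the Top2a difference was -0.61. Cd96, a receptor of T and natural killer cells, was at 7.54, 8.07 and 7.21 after empty and 6.43, 6.44 and 6.94 after curcumin liposomes (-1.0 ± 0.22). H2-Q10, a class I gene whose product is secreted in the liver, was at 9.42, 9.7 and 9.59 after empty and 8.63, 8.89 and 8.26 after curcumin liposomes (-0.97 ± 0.26); class I genes are similar in sequence, so reads could be shared among them. The remaining genes of the rule were the transcription factors Casz1 (-0.93 ± 0.22) and Zfp595 (-0.70 ± 0.15), Galnt1 (-0.53 ± 0.12), Rnf103 (-0.71 ± 0.16), Dnah8 (-0.54 ± 0.12), Wdr44 (-0.70 ± 0.16) and Uri1 (-0.53 ± 0.12). The library kit marks no strand, so reads of overlapping antisense genes could not be told apart.

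NRF2 target genes were higher in mean after curcumin in 19 of the 25 tested, and no member passed the test. The list held 28 genes; Me1 and Gsta1 were under the level tested, and Gpx2 was listed at 0 in all libraries. Its median difference was 0.13, beside 0.00 over all genes tested. Unadjusted p was under 0.05 for 4 members, all higher in mean, and libraries did not overlap for 4, also all higher. Without curcumin replicate 3 the median was 0.05, and without curcumin replicate 2 it was 0.22. Hmox1, heme oxygenase 1, stood at 12.06, 12.1 and 12.69 after empty and 12.67, 12.67 and 13.59 after curcumin liposomes. The highest empty library was just above 2 of the 3 curcumin libraries, and curcumin replicate 3 was highest of all (difference 0.70 ± 0.29, limma unadjusted p = 0.035, adjusted p = 0.58; 0.39 without curcumin replicate 3). Slc7a11, the cystine importer that feeds glutathione synthesis, was at 9.7, 8.88 and 9.45 after empty and 9.95, 9.8 and 10 after curcumin liposomes (0.57 ± 0.24, limma adjusted p = 0.57). Its arms did not overlap, and empty replicate 2 was low (0.34 without empty replicate 2). Osgin1, an oxidative stress growth inhibitor, was at 9.27, 9.72 and 9.6 after empty and 10.16, 10.09 and 9.95 after curcumin liposomes (0.54 ± 0.16, limma adjusted p = 0.46), again without overlap. Fth1, the ferritin heavy chain, was at 15.71, 15.45 and 15.72 after empty and 15.92, 15.76 and 16.06 after curcumin liposomes (0.28 ± 0.13), and Blvrb, biliverdin reductase B, at 10.74, 10.8 and 11.05 after empty and 11.22, 11.06 and 11.21 after curcumin liposomes (0.30 ± 0.20).

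Several of the classical NRF2 targets had intervals that held 0. Nqo1, the quinone reductase most used as a reporter of NRF2, was at 5.34, 4.81 and 5.16 after empty and 5.12, 4.8 and 5.07 after curcumin liposomes, a difference of -0.11 ± 0.14 with a 95% confidence interval from -0.42 to 0.20. Gclm and Gclc, the subunits of glutamate-cysteine ligase, had differences of -0.11 ± 0.28 (interval -0.72 to 0.49) and -0.01 ± 0.22 (-0.49 to 0.46). Thioredoxin reductase Txnrd1 was at 0.03 ± 0.19 (-0.38 to 0.44) and glutathione reductase Gsr at -0.29 ± 0.28 (-0.91 to 0.32). These 5 intervals lie within 2-fold on both sides, but Nqo1 is at a low level, where the scale pulls values together. Sulfiredoxin, Srxn1, was at 9.77, 8.94 and 9.32 after empty and 10, 8.91 and 10.15 after curcumin liposomes, with an interval from -0.49 to 1.17 that reaches past 2-fold (difference 0.34 ± 0.38, 0.11 without curcumin replicate 3). Over the list, 22 of 25 members had intervals within 2-fold. Of the regulators themselves, Nfe2l2, which encodes NRF2, was at 0.18 ± 0.15, Keap1 at 0.19 ± 0.18 and the repressor Bach1 at 0.08 ± 0.27, and no member of the 10 pathway genes had an unadjusted p under 0.05.

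NRF2 binds the antioxidant response element, whose core is TGACNNNGC. The 250 bases before the start of each gene in the RefSeq table (build GRCm38.p6) were searched for that core on both strands. It was found for 6 of the 21 tested targets that had an entry (28.6%), and for 11.5% of the 27025 genes in the table. The 4 of these 6 with the smallest p are shown to let the core be seen beside the values; each stretch is 29 bases on the gene's strand, 5′ to 3′, with the match in capitals, and in each the match is the reverse complement of the core.
Prdx1, chr4:116685456-116685484, + strand: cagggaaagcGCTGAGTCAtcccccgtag
G6pdx, chrX:74428919-74428947, - strand: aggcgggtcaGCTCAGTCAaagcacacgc
Mafg, chr11:120633751-120633779, - strand: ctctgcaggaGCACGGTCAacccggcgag
Gclm, chr3:122245413-122245441, + strand: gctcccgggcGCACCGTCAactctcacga
The matches begin 133, 57, 222 and 134 bases before the start. In the GENCODE M21 annotation the Prdx1 and Gclm stretches overlap no exon. The G6pdx stretch overlaps an exon and an untranslated region of G6pdx itself, and the Mafg stretch overlaps an exon of Gm17586. None of the 4 genes had libraries that were apart: Prdx1, a peroxiredoxin, was at 0.19 ± 0.16, glucose-6-phosphate dehydrogenase G6pdx at -0.15 ± 0.18, the NRF2 partner Mafg at 0.14 ± 0.19 and Gclm at -0.11 ± 0.28. A match describes the letters only, and other members may hold the element further away than this window.

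NF-kB targets showed no common direction. Of 28 tested members of 30 (Il23a and Cxcl1 were at low levels), 12 were higher and 16 lower in mean. The median was -0.06, or 0.01 without curcumin replicate 1 and -0.11 without curcumin replicate 3. An unadjusted limma p under 0.05 was found for 3 higher and 2 lower members. The interferon- and NF-kB-driven chemokine Cxcl10 was at 8.32, 8.42 and 8.42 after empty and 8.82, 9.36 and 8.9 after curcumin liposomes (0.64 ± 0.24, limma adjusted p = 0.54), mitochondrial superoxide dismutase Sod2 at 11.04, 10.64 and 10.99 after empty and 11.4, 11.13 and 11.41 after curcumin liposomes (0.42 ± 0.15, limma adjusted p = 0.51), and Nfkb1, which encodes p105 and p50, at 12.18, 12.18 and 12.24 after empty and 12.42, 12.27 and 12.6 after curcumin liposomes (0.23 ± 0.11, 0.15 without curcumin replicate 3). All 3 curcumin libraries were above all empty ones for each of these. Icam1, an adhesion molecule, was at 12.43, 12.19 and 12.62 after empty and 12.56, 12.64 and 13.15 after curcumin liposomes (0.37 ± 0.15, 0.19 without curcumin replicate 3), with overlap. In the other direction, Birc3, an inhibitor of apoptosis, was at 12.54, 12.45 and 12.36 after empty and 12, 12.19 and 12.2 after curcumin liposomes (-0.32 ± 0.09, limma adjusted p = 0.43), and Il1b at 11.93, 12.1 and 11.94 after empty and 11.74, 11.46 and 11.65 after curcumin liposomes (-0.37 ± 0.25, limma adjusted p = 0.73). Both were apart in all 3 libraries, as were the IkB-like genes Bcl3 (-0.31 ± 0.16) and Nfkbiz (-0.14 ± 0.13). Ptgs2, cyclooxygenase 2, was at 8.77, 8.65 and 8.47 after empty and 8.08, 7.7 and 8.49 after curcumin liposomes (-0.54 ± 0.23). Tnf stood at 7.91, 7.93 and 7.77 after empty and 8.1, 7.58 and 7.74 after curcumin liposomes, a difference of -0.06 ± 0.21 with an interval from -0.53 to 0.40, and Nfkbia, the inhibitor that NF-kB itself induces, at 0.08 ± 0.10 (interval -0.13 to 0.30). Rela (-0.01 ± 0.12) and Relb (0.03 ± 0.13) were near 0. Il6 was at 4.62, 4.62 and 4.63 after empty and 4.63, 4.62 and 4.63 after curcumin liposomes. Il12b was at 4.19, 4.19 and 4.52 after empty and 4.19, 4.19 and 4.66 after curcumin liposomes. Both lay at the bottom of the levels tested, where the scale pulls values together, so a difference may be understated. Among 26 genes of the pathway itself, the median was -0.05, and the kinases Map3k7 (-0.76 ± 0.27) and Ikbkb (-0.25 ± 0.10) had unadjusted limma p of 0.015 and 0.028, both lower in mean.

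**Figure D3:**
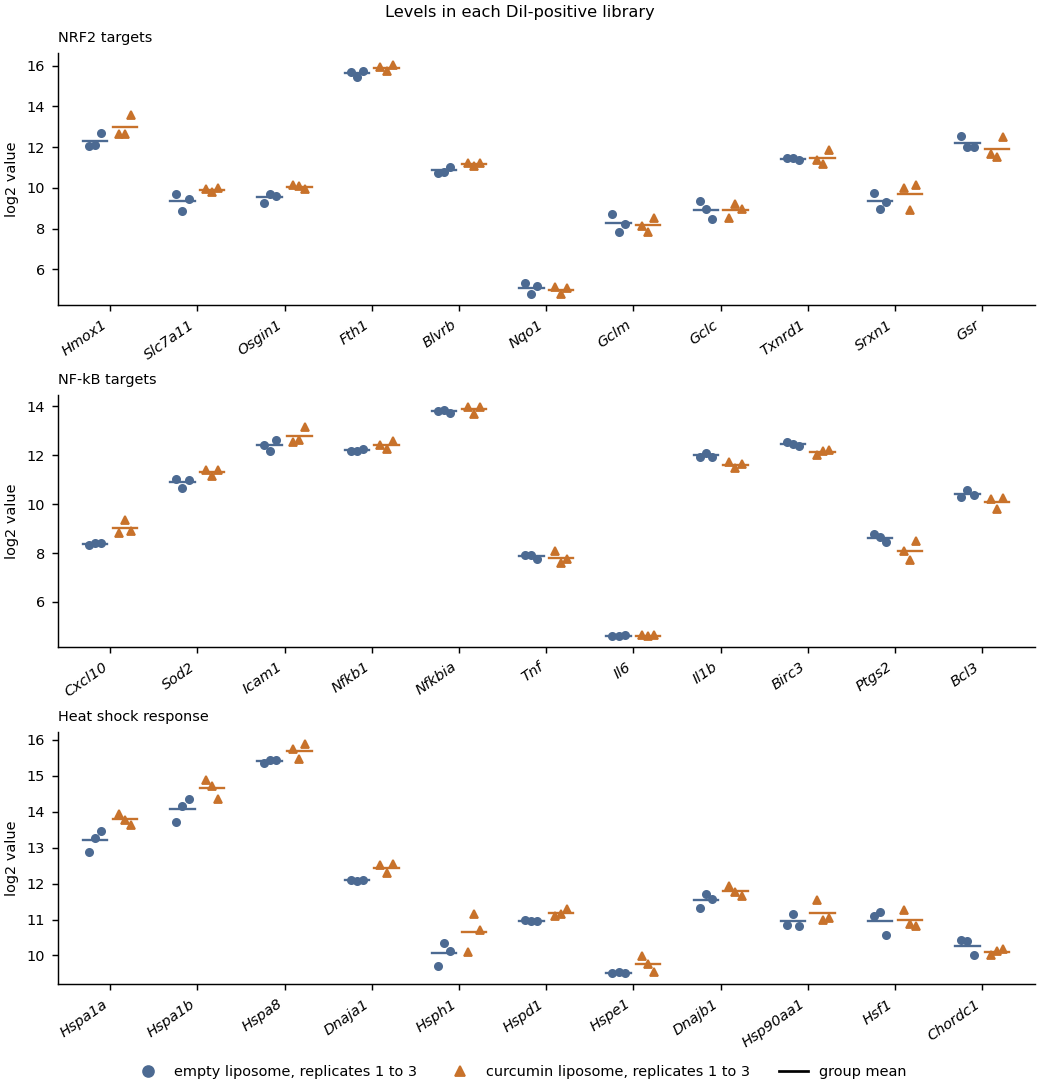
Deposited log2 value (y axis) of 11 NRF2 targets, 11 NF-kB targets and 11 heat shock genes in each DiI-positive library; circles are empty and triangles curcumin libraries, in the order of replicates 1 to 3, and bars are group means. Slc7a11, Osgin1, Cxcl10, Sod2 and Dnaja1 sit apart and higher after curcumin, Il1b and Birc3 apart and lower, while Nqo1, Gclm, Tnf and Il6 overlap.

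Heat shock genes were higher in mean after curcumin in 15 of the 16 tested (Hspb1 and Cryab, of 18, were under the level tested). The list median was 0.23, 5 had an unadjusted p under 0.05 and 6 had libraries that did not overlap, all of these higher. The median stayed between 0.17 and 0.25 when any 1 of the 6 libraries was left out, and was 0.18 in DiI-negative cells. The inducible HSP70 genes Hspa1a and Hspa1b were at 12.88, 13.27 and 13.47 after empty and 13.94, 13.77 and 13.63 after curcumin liposomes and at 13.72, 14.15 and 14.34 after empty and 14.87, 14.7 and 14.36 after curcumin liposomes (differences 0.58 ± 0.25 and 0.58 ± 0.25, limma adjusted p = 0.58 and 0.59). These genes are near-identical neighbours, so their reads could be split and they amount to 1 observation. The counts given for the list hold both of them. The constitutive HSP70 gene Hspa8 was at 15.36, 15.44 and 15.43 after empty and 15.73, 15.47 and 15.89 after curcumin liposomes (0.29 ± 0.10, limma adjusted p = 0.51; 0.19 without curcumin replicate 3) and its cochaperone Dnaja1 at 12.09, 12.08 and 12.1 after empty and 12.51, 12.28 and 12.54 after curcumin liposomes (0.35 ± 0.12, limma adjusted p = 0.5). Hsph1, an HSP110 exchange factor, was at 9.71, 10.35 and 10.12 after empty and 10.11, 11.16 and 10.7 after curcumin liposomes (0.59 ± 0.26), with empty replicate 2 above curcumin replicate 1. The mitochondrial chaperonin Hspd1 was at 10.98, 10.97 and 10.96 after empty and 11.09, 11.14 and 11.3 after curcumin liposomes (0.21 ± 0.13). The factor itself, Hsf1, was at 0.01 ± 0.17, and Chordc1 was the 1 member with a lower mean (-0.17 ± 0.13).

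Other stress genes were mixed. Atf3, a stress-induced repressor found both in the unfolded protein response and in the immediate early list, was at 11.29, 10.77 and 11.12 after empty and 11.74, 11.54 and 11.87 after curcumin liposomes (0.66 ± 0.16, limma adjusted p = 0.42). Chac1, an enzyme that degrades glutathione, stood at 4.92, 5.2 and 5.29 after empty and 4.63, 4.63 and 4.63 after curcumin liposomes (-0.51 ± 0.12), with all 3 curcumin libraries at the low end of the levels tested, where the scale pulls values together. In the unfolded protein response list, 17 of 27 were higher in mean with a median of 0.09 (0.04 without curcumin replicate 3), and the endoplasmic reticulum chaperones Dnajb9 (0.36 ± 0.14), Calr (0.20 ± 0.08) and Hspa5 (0.11 ± 0.09) were apart and higher. In the immediate early list, 14 of 24 were higher in mean, with a median of 0.12 (0.02 without empty replicate 3). Jund, an AP-1 subunit, was at 10.09, 9.97 and 9.52 after empty and 9.16, 8.97 and 9.38 after curcumin liposomes (-0.69 ± 0.18), and Klf2, a quiescence factor, at 10.75, 10.78 and 10.47 after empty and 10.5, 9.97 and 9.98 after curcumin liposomes (-0.52 ± 0.15), both lower in mean.

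Genes of antigen presentation differed little. In the MHC class II list, 12 of 17 were higher in mean with a median of 0.12 (0.05 without curcumin replicate 1 and 0.19 without replicate 3). H2-DMb1, a chain of the peptide editor DM, was at 13.31, 13.3 and 13.27 after empty and 13.59, 13.47 and 13.59 after curcumin liposomes (0.26 ± 0.08, limma adjusted p = 0.44), the 1 member with an unadjusted p under 0.05, and H2-Ab1 was at 0.11 ± 0.09 (interval -0.08 to 0.31). Of the costimulation and coinhibition list, 12 of 17 tested were higher in mean with a median of 0.12 (0.05 without curcumin replicate 2). Havcr2, which encodes the inhibitory receptor TIM-3, was at 10.97, 10.66 and 10.79 after empty and 11.4, 11 and 11.45 after curcumin liposomes (0.48 ± 0.15, limma adjusted p = 0.46). All curcumin libraries lay above all empty ones, curcumin replicate 2 only just. Cd86 was at 12.03, 11.79 and 11.99 after empty and 12.02, 12.23 and 12.5 after curcumin liposomes (0.31 ± 0.13, 0.19 without curcumin replicate 3), with curcumin replicate 1 within the empty range, and Cd83 at 0.28 ± 0.15. Cd80 (-0.25 ± 0.23), Cd40 (-0.11 ± 0.17) and Cd274, which encodes PD-L1 (-0.09 ± 0.18), overlapped between arms. Among cytokines, the median of 20 tested genes was 0.03, none had an unadjusted p under 0.05, and Il1b alone was apart; Il10 stood at 4.23, 4.19 and 4.68 after empty and 4.6, 4.51 and 4.5 after curcumin liposomes (0.17 ± 0.11), near the bottom of the levels tested. Among 25 chemokine ligands and receptors, Cxcl10, Cxcr4 (0.42 ± 0.15) and Ccl22 (0.61 ± 0.28, 0.34 without empty replicate 1) had an unadjusted p under 0.05, all higher in mean. P2rx7, the ATP-gated channel upstream of the inflammasome, was at 10.49, 10.74 and 10.91 after empty and 11.21, 11.16 and 11.29 after curcumin liposomes (0.51 ± 0.15, limma adjusted p = 0.44), and Txnip, a thioredoxin-binding protein, at 12.43, 12.52 and 12.56 after empty and 12.82, 12.9 and 12.69 after curcumin liposomes (0.30 ± 0.12). The sensor Nlrp3 was at 8.68, 8.7 and 8.86 after empty and 7.76, 8.91 and 9.16 after curcumin liposomes (-0.14 ± 0.30), lowest in curcumin replicate 1. Interferon-stimulated genes had a median of 0.03 and no member with an unadjusted limma p under 0.05 among 26. No member of the 19 toll-like receptor genes had such a p either, and their median was 0.06. With 1 of the 6 libraries left out, the medians ran from -0.05 to 0.1 and from -0.02 to 0.16.

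**Figure D4:**
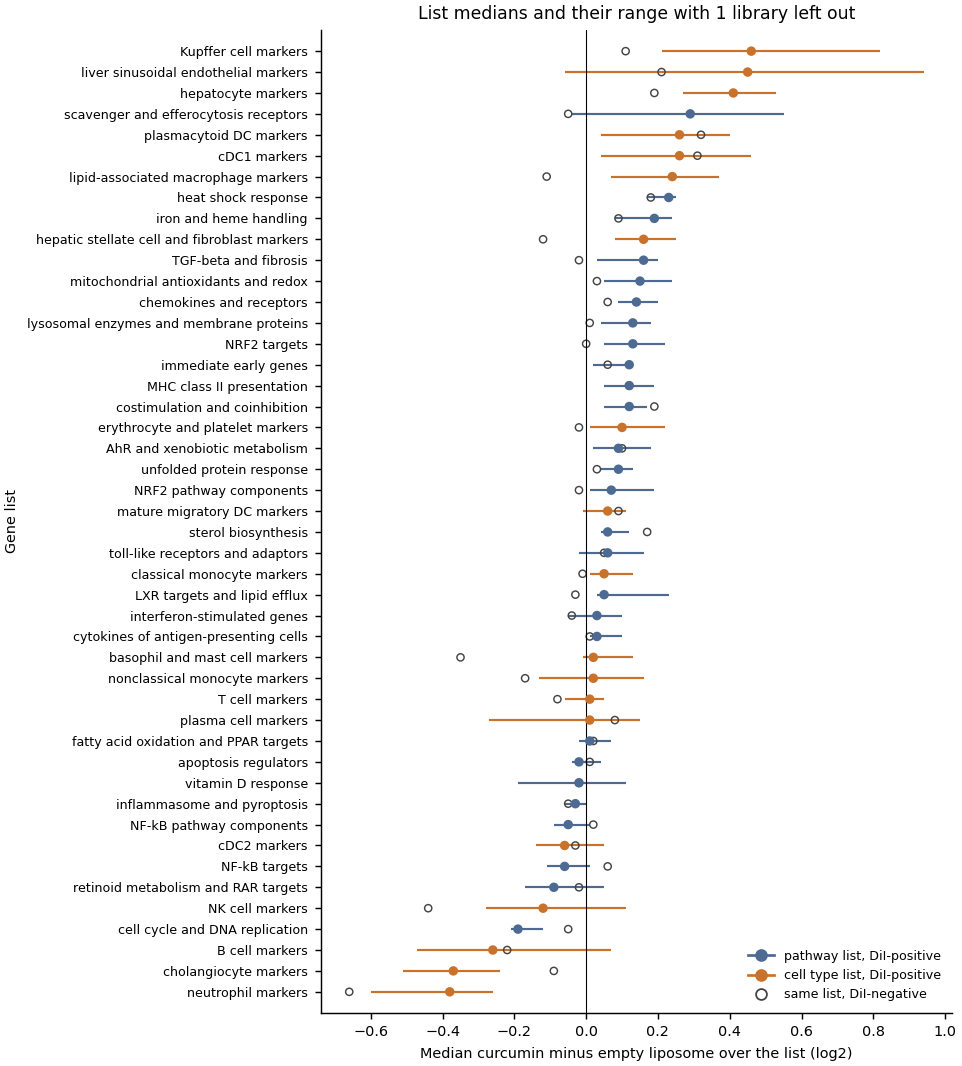
Median difference between curcumin and empty liposomes (x axis, log2) over each of 46 gene lists (y axis); filled points are DiI-positive cells, lines run from the lowest to the highest median with 1 of the 6 libraries left out, and open circles are DiI-negative cells. The lines of the Kupffer cell, hepatocyte, heat shock and neutrophil lists stay on one side of 0, and those of the sinusoidal endothelial, scavenger receptor and B cell lists cross it.

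The lists with the largest medians were markers of cells other than dendritic cells. Kupffer cell markers were higher in mean in 21 of 22 genes, with a median of 0.46, 3 unadjusted p under 0.05 and 2 genes whose libraries were apart. The mean level of the list ran from 9.96 to 11.62 in the empty and from 10.96 to 11.77 in the curcumin libraries. Clec4f stood at 11.54, 13.45 and 14.08 after empty and 13.61, 14.18 and 14.61 after curcumin liposomes (1.11 ± 0.57, limma adjusted p = 0.64), Vsig4 at 9.52, 11.16 and 11.8 after empty and 11.4, 11.84 and 12.36 after curcumin liposomes (1.03 ± 0.50) and Timd4 at 5.85, 8.63 and 10.34 after empty and 8.91, 9.8 and 10.24 after curcumin liposomes (1.37 ± 0.90). Empty replicate 1 was the lowest library in each; without it the differences were 0.37, 0.38 and 0.16 and the list median was 0.21; without curcumin replicate 1 it was 0.82.

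Hepatocyte markers were higher in mean in 16 of 18 tested genes, with a median of 0.41 (0.27 to 0.53 with any 1 library left out). Of these 18, 10 had an unadjusted p under 0.05, all higher, and 4 had libraries that were apart; Apoc3, Serpina1a, Mup3 and Hamp were under the level tested. Alb, which encodes albumin, was at 8.32, 8.04 and 9.03 after empty and 9.73, 9.7 and 8.82 after curcumin liposomes (0.95 ± 0.35, limma adjusted p = 0.54). Fabp1, the liver fatty acid binding protein, was at 5.79, 6.25 and 6.23 after empty and 7.31, 7.18 and 6.42 after curcumin liposomes (0.88 ± 0.26), Fgb, a fibrinogen chain, at 5.72, 5.74 and 6.7 after empty and 6.58, 7.98 and 7.12 after curcumin liposomes (1.17 ± 0.38) and Cps1, the first enzyme of the urea cycle, at 4.16, 4.17 and 4.22 after empty and 5.26, 5.17 and 4.26 after curcumin liposomes (0.72 ± 0.20). Curcumin replicates 1 and 2 were the high libraries in Alb and Cps1, and curcumin replicate 3 was within or near the empty range. The mean level of the list was 5.54, 5.76 and 5.97 in the empty and 6.14, 6.49 and 5.98 in the curcumin libraries. The part of these levels in the high values of Mat1a and Serpina1b above was not tested.

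Liver sinusoidal endothelial markers depended on curcumin replicate 3. Of 18 genes, 17 were higher in mean and the median was 0.45, but without curcumin replicate 3 it was -0.06 and without curcumin replicate 1 it was 0.94. Kdr, a receptor for vascular endothelial growth factor, stood at 5.94, 5.51 and 6.79 after empty and 5.46, 7.78 and 11.68 after curcumin liposomes (2.23 ± 1.16, limma adjusted p = 0.66), the scavenger receptor Stab2 at 8.17, 9.0 and 9.9 after empty and 6.24, 9.87 and 12.02 after curcumin liposomes (0.36 ± 1.2) and Oit3 at 6.92, 5.74 and 6.51 after empty and 6.57, 6.06 and 11.11 after curcumin liposomes (1.52 ± 1.06). In each, curcumin replicate 3 was well above the other libraries, and without it the Kdr and Oit3 differences were 0.54 and -0.08. The same library was highest for cDC1 markers (list median 0.26, and 0.04 without it; Xcr1 at 8.23, 7.99 and 7.28 after empty and 7.92, 7.49 and 10.09 after curcumin liposomes) and plasmacytoid dendritic cell markers (0.26, and 0.04 without it; Siglech at 5.79, 5.87 and 7.7 after empty and 7.64, 7.4 and 11.28 after curcumin liposomes), and lowest for B cell markers. All 16 B cell markers were lower in mean after curcumin (median -0.26). Without curcumin replicate 3 the median was 0.07, and without curcumin replicate 1 it was -0.47. Cd79b, a chain of the B cell receptor complex, stood at 14.81, 14.91 and 14.61 after empty and 15.02, 14.96 and 13.69 after curcumin liposomes, with curcumin replicate 3 under all the others. In DiI-negative cells curcumin replicate 3 also had the highest mean level of these lists among the curcumin libraries, 11.73 beside 10.88 and 10.38 for cDC1, 10.19 beside 9.44 and 9.07 for plasmacytoid and 7.95 beside 7.27 and 7.25 for endothelial markers, and the lowest for B cell markers, 11.22 beside 11.70 in both others. Scavenger and efferocytosis receptors, which share genes with the Kupffer and endothelial lists, had a median of 0.29, and -0.04 without curcumin replicate 3.

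Neutrophil markers were lower in mean in 11 of 12 tested genes, with a median of -0.38 (-0.60 without curcumin replicate 1) and -0.66 in DiI-negative cells; Ly6g, Mpo, Elane and Camp were under the level tested. The alarmins S100a8 and S100a9 stood at 10.29, 10.29 and 10.67 after empty and 10.47, 9.58 and 9.4 after curcumin liposomes and at 11, 11.01 and 11.16 after empty and 11.23, 10.06 and 9.92 after curcumin liposomes (-0.60 ± 0.35 and -0.65 ± 0.39, or -0.39 and -0.41 without curcumin replicate 3), and the chemokine receptor Cxcr2 at 8.62, 9.42 and 9.45 after empty and 8.99, 7.31 and 7.47 after curcumin liposomes (-1.24 ± 0.47). In these genes curcumin replicate 1 was within or above the empty range, and replicates 2 and 3 were low. Without curcumin replicate 1 their differences were further below 0. Over the list, 3 of the 12 tested genes had libraries that did not overlap, all of them lower after curcumin. Natural killer cell markers had a median of -0.12, T cell markers of 0.01, cDC2 markers of -0.06 and classical monocyte markers of 0.05. With 1 of the 6 libraries left out, these ran from -0.28 to 0.11, -0.06 to 0.05, -0.14 to 0.05 and 0.01 to 0.13. Of the cDC2 list, Epcam, an adhesion molecule also of bile duct cells, was apart and lower (-0.54 ± 0.16).

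**Figure D5:**
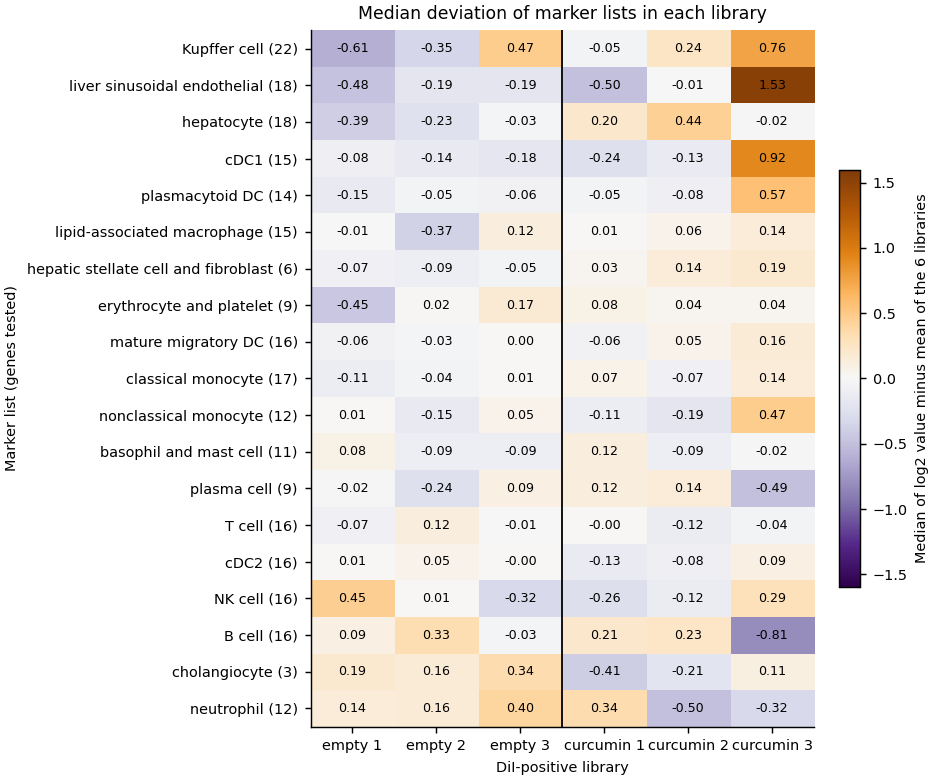
Median over each marker list (rows, with the number of genes tested) of the log2 value minus the mean of the 6 libraries, in each DiI-positive library (columns, empty to the left of the line). Curcumin replicate 3 has the highest sinusoidal endothelial (1.53), cDC1 (0.92) and Kupffer (0.76) values and the lowest B cell value (-0.81), and empty replicate 1 the lowest Kupffer value (-0.61).

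In the curcumin arm the genes with the widest spread were Siglech, Kit, Zbtb46, Lifr, Dhx33, Ehd3, Slc43a3 and Tbc1d4. Zbtb46, a transcription factor of conventional dendritic cells and endothelium, ran from 7.24 in replicate 1 through 9.0 to 10.97 in replicate 3, and Kit, the stem cell factor receptor, from 7.33 through 8.98 to 10.88. Both spanned the whole range of the empty libraries (9.7, 9.16 and 8.87 and 9.67, 9.96 and 9.11). In the empty arm the widest were C4b, Marco, Cd163, Plxna1, Clec4f, Fcna, Vsig4 and Plxdc1, of which Marco, Cd163, Clec4f, Fcna and Vsig4 belong to the Kupffer cell list. C4b, complement component 4, stood at 6.54, 9.99 and 10.88 after empty and 9.88, 10.79 and 10.59 after curcumin liposomes and the scavenger receptor Marco at 9.05, 9.6 and 12.38 after empty and 10.66, 10.64 and 11.88 after curcumin liposomes. Empty replicate 1 was lowest in both, and without it the differences were -0.02 and 0.07.

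The same contrast was tested in DiI-negative cells. Their libraries do not enter the DiI-positive differences, but they share the fit and so the estimate of the spread. In DiI-negative cells no gene had a limma adjusted p under 0.05 (percent called 0; lowest adjusted p 0.72; 215 genes higher and 254 lower at an unadjusted p under 0.05, or 325 and 163 with each library centred on its median). Libraries did not overlap for 1597 genes (11.2%), 815 above (5.73%) and 782 below (5.50%). The test of the difference between the DiI-positive and DiI-negative contrasts called no gene either (percent called 0; 527 genes at an unadjusted p under 0.05), so no difference was shown to be particular to DiI-positive cells. With the mean of both contrasts, added after seeing the data, 6 curcumin libraries stood against 6 empty ones and again no gene was called (percent called 0; lowest limma adjusted p 0.40; 544 higher and 575 lower at an unadjusted p under 0.05, or 716 and 423 with each library centred on its median). Across the 14227 genes, differences in the 2 gates had a Pearson r of 0.23 and the same sign for 57.1%. Genes are not independent replicates. Whether same-numbered libraries of the 2 gates share mice is not stated in the sources used here. If they do, the 6 against 6 libraries in the mean of both contrasts are not independent, and the fit did not allow for that. The deviations from the group mean of curcumin replicate 3 in the 2 gates correlated at 0.33 across genes, those of replicates 1 and 2 at 0.07 and 0.03. Of the 701 genes that were apart and higher in DiI-positive cells, 79 (11.3%) were apart and higher in DiI-negative cells and 21 (3.0%) apart and lower. Of the 724 that were lower, 72 (9.9%) were apart and lower and 29 (4.0%) apart and higher. Over all genes tested these shares were 5.73% above and 5.50% below.

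Some of the 79 higher and 72 lower genes that were apart in both gates are given here, chosen after their values were seen. Rab24 was at 11.26, 11.4 and 10.93 after empty and 10.75, 10.5 and 10.49 after curcumin liposomes in DiI-positive cells and at 11.51, 11.20 and 11.32 against 10.91, 10.90 and 10.90 in DiI-negative cells, where its difference was -0.44 ± 0.13. Inpp4a had differences of 0.60 ± 0.13 and 0.39 ± 0.13, Atf3 of 0.66 ± 0.16 and 0.46 ± 0.16, and Trib1, a pseudokinase that targets C/EBP factors, of 0.42 ± 0.13 and 0.40 ± 0.13. Havcr2 was at 11.14, 11.29 and 11.19 after empty and 11.58, 11.54 and 11.94 after curcumin liposomes in DiI-negative cells (0.48 ± 0.15, beside 0.48 ± 0.15 in DiI-positive cells). H2-DMb1 had 0.26 ± 0.08 and 0.23 ± 0.08, DNA topoisomerase Top1 0.24 ± 0.09 and 0.40 ± 0.09, and the integrin chain Itgav -0.34 ± 0.09 and -0.28 ± 0.09. The chaperones Hspa8 (0.35 ± 0.10) and Dnaja1 (0.39 ± 0.12) were apart and higher in DiI-negative cells as well. Other leading genes differed in the point estimate: Per2 was at -0.41 ± 0.19 and Ino80 at -0.46 ± 0.17 in DiI-negative cells, and the differences between gates, 1.23 ± 0.28 and 1.2 ± 0.24, both had a limma adjusted p of 1. Among NRF2 targets, Osgin1 was at -0.25 ± 0.16 and Slc7a11 at 0.02 ± 0.24 in DiI-negative cells, and Hmox1 at 0.48 ± 0.29; the list median there was 0.00.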

How the data were processed

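Low-input RNA sequencing values of 12 libraries were used, 6 of them in the main comparison. The values are log2 values per gene, 1 column per library, deposited by the authors. The build was GRCm38, with DESeq2 1.8.1 and STAR 2.4.0d among the tools, per the submitters' processing notes. How reads were counted, on which annotation, and how values were transformed is not given in the sources used here. GEO has 24 records for 12 library codes, 2 to a code, so each code was counted as 1 library. Codes were read against the design text as empty or curcumin liposome and as DiI-positive or DiI-negative. The depth of each library is unknown, so precision is given as the spread between libraries only.

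Of 45792 genes, 20918 were listed at 0 in all libraries. The 14227 genes averaging 4 or more on the log2 scale were fitted with limma 3.58.1 in R 4.3.3. The fit had 1 mean per group over all 12 libraries (8 residual and 3.51 prior degrees of freedom), a prior variance that followed the mean, and Benjamini-Hochberg adjustment over all genes, with 0.05 as the threshold. Symbols and positions came from GENCODE M21, which named 99.3% of genes above 0 somewhere. Promoter sequences came from the RefSeq table.

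Genes were named by rule. In each direction it took the 15 smallest p and the 10 largest differences among genes with a mean of at least 6, an official symbol and libraries that did not overlap. Added to these were at most 4 members per list, ranked by p, in 46 lists, 25 set genes and the 8 genes with the widest spread in each group at a mean of at least 8. Other genes were picked after their values were seen: members of lists shown to complete a list's account, such as those at or near 0, and those said to be so in the text. The genes compared and the lists were chosen with earlier results of these data known. No set test was made, and lists are described by counts and medians over their tested members. Alternatives left out 1 library at a time or changed the filter, the prior, the weights, the scaling, the libraries fitted or the replicate term. A few genes that the rules name are not reported here.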

Additional observations from a re-analysis of the deposited data

How the results depend on the processing

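No gene was called at an adjusted p under 0.05 in DiI-positive cells, nor for the difference between gates, in any setting that kept all libraries. With 1 library left out, the number of called genes ran from 0 to 4 in DiI-positive cells and from 0 to 2 for the difference between gates. In DiI-positive cells these were Tcaf1, Osmr and Itih4 without curcumin replicate 1, Galnt18, Cd300lg and Mxra8 without curcumin replicate 2, Cps1, Aldh1a1, Pbld2 and Serpina1b without curcumin replicate 3, and Fras1 and Kcnj16 without empty replicate 3. The arm with a library left out is then assumed to vary like the other groups.

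The 1165 genes at an unadjusted p under 0.05 became 694 when only the 6 DiI-positive libraries were fitted and 713 with library weights, whose lowest value was 0.44 for curcumin replicate 1. The cause was not tested. With the number of genes at 5 or more as a covariate, chosen after seeing the data, the count was 1416, and with 1 library left out it ran from 877 to 1511. Genes with libraries that did not overlap numbered 1425 with all 6 libraries and from 2449 to 3257 with 1 left out, since 5 libraries are easier to separate than 6.

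The deviations of same-numbered libraries of the 2 arms correlated at 0.03, 0.05 and 0.17, and those of differently numbered libraries at -0.12 to 0.07. With 3 libraries in each arm, these values cannot tell whether replicate numbers pair the arms. With the replicate block, no gene was called, and the unadjusted count was 1190 over 12 libraries and 735 over the 6.

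Of the 242 genes named by the rule, 208 kept their sign in every one of the 17 settings run. The 46 named for rank were chosen for libraries that did not overlap, so leaving out a library cannot turn their sign, and 8 of them (C6, Col4a1, Chp2, Iigp1, Slfn4, Rhbdf1, Cdc7 and Top2a) moved by over 1.5 times with some library left out. Of 368 alternative values of list medians, 23 moved by more than the spread between libraries. Read depth is unknown and sets no limit that could be given here.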

Other observations

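Lists of metabolism and tissue remodelling, not described above, had medians between -0.19 and 0.19, beside 0.00 over all genes tested. Lysosomal genes were higher in mean in 23 of 28, with a median of 0.13 (0.04 without empty replicate 2). Psap, which encodes the saposin precursor, was at 0.39 ± 0.12 and the proton pump subunit Atp6v0d2 at 0.36 ± 0.15 (0.18 without empty replicate 3), both with libraries that did not overlap, while Lamp1 was at -0.22 ± 0.19. Mitochondrial antioxidant and redox genes were higher in mean in 18 of 20 (median 0.15, and 0.05 without empty replicate 2), with Sod1 at 0.27 ± 0.14 and Msrb1 at -0.28 ± 0.15. Iron and heme genes had a median of 0.19 over 21 tested (0.08 without curcumin replicate 3), with the iron-regulated aconitase Aco1 at 0.36 ± 0.14. Sterol synthesis genes had a median of 0.06 over 23 tested (0.12 without empty replicate 3) and 3 members with an unadjusted p under 0.05: Hsd17b7 (0.67 ± 0.21, 0.44 without empty replicate 2), Fdft1 (0.40 ± 0.17, 0.20 without empty replicate 2) and Sc5d (0.43 ± 0.16, 0.27 without curcumin replicate 2). Plin2, which coats lipid droplets, stood at 12.86, 12.66 and 12.99 after empty and 13.12, 13.10 and 13.39 after curcumin liposomes (0.37 ± 0.12, limma adjusted p = 0.48), above all empty libraries in each curcumin library.

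LXR targets had a median of 0.05 over 16 tested (0.23 without empty replicate 3); Abca1, the cholesterol exporter, was at -0.05 ± 0.22 and Apoc1 at 0.82 ± 0.30 (0.48 without empty replicate 1). In the TGF-beta and fibrosis list (median 0.16 over 21 tested, and 0.03 without empty replicate 2), Thbs1, which encodes thrombospondin 1, was at 8.23, 8.06 and 8.66 after empty and 8.75, 9.94 and 9.01 after curcumin liposomes (0.92 ± 0.30, 0.57 without curcumin replicate 2, limma adjusted p = 0.46), and Ccn2 (0.64 ± 0.27, 0.27 without curcumin replicate 3) and Pdgfb (0.51 ± 0.23, 0.27 without curcumin replicate 1) also lay above all empty libraries, Ccn2 near the low end of the levels tested. Cell cycle genes were lower in mean in 17 of 24 (median -0.19, and -0.21 to -0.12 with any 1 library left out), with Top2a the 1 member at an unadjusted p under 0.05. In each of these lists no gene had a limma adjusted p under 0.05.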
